A study of Mus musculus with 4 samples.

Results

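The numbered Zfp genes are mouse zinc finger genes that carry the family name Zfp and a number, and their level was followed in peritoneal macrophages from mice with a floxed gene for the DNA methyltransferase Dnmt1 and from mice labelled as its knockout. Of the 13834 rows in the table of gene counts, 327 had such a symbol, after setting aside Zfp36, which encodes an RNA-binding protein with another kind of finger. The members were selected on their measured values, at least 99 counts in each of the 4 samples, which left 179 rows with 178 distinct symbols, since Zfp91 was listed in 2 rows. All 179 rows passed the filter on low counts and were tested, as were 314 of the 327 numbered rows. The control samples came from Dnmt1fl/fl mice, whose Dnmt1 gene is flanked by loxP sites (strain B6.129S4-Dnmt1tm2Jae/Mmucd) and whose genotype label reads wt, and whether they carried Cre is not stated. The Dnmt1KO samples came from floxed mice that also carried Cre under the LysM promoter, which is active in macrophages, monocytes and neutrophils. The mice were 10 weeks old, and both groups had received 4% thioglycolate broth 3 days before the peritoneal cells were collected and cultured. RNA was measured in 2 samples per genotype, which the labels number 1 and 2 without saying that they came from separate animals, so p-values measure the spread between these samples only.

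Most numbered Zfp genes encode proteins with runs of cysteine-histidine zinc fingers, each of which holds a zinc ion and contacts a few bases of DNA. Many of them also carry a KRAB domain, which binds the corepressor Trim28 and through it recruits histone methyltransferases and DNA methylation to retroelements and imprinted regions. Dnmt1 copies methylation onto the new DNA strand at CG dinucleotides after replication.

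The samples held 20228071 and 24198943 counts in Dnmt1fl/fl and 21767795 and 22611219 counts in Dnmt1KO. Levels are given in CPM, counts divided by the TMM-scaled size of the library, and the limit of 99 counts corresponded to 3.95 to 4.999 CPM. Dnmt1, the targeted gene, was at 86.6 and 67.0 CPM in the Dnmt1fl/fl samples and at 37.0 and 42.7 CPM in the Dnmt1KO samples, where the mean was 51.9% of the control mean. Its log2 fold change was -0.95 (SE 0.24), with an unadjusted p of 0.00839 and an adjusted p of 1.00 from edgeR's quasi-likelihood test. The summed level of the 8 macrophage markers was 35511 and 34589 CPM in Dnmt1fl/fl and 17906 and 21485 CPM in Dnmt1KO. Without Lyz2, whose locus carries the LysM-Cre insertion, the other 7 summed to 5980.3 and 6002 CPM in Dnmt1fl/fl and to 6555 and 5741 CPM in Dnmt1KO. Dnmt1KO replicate 1 stood apart in several other marker lists. The 6 neutrophil markers tested summed to 733 CPM there and to 182 to 253 CPM in the other samples, while Elane, Mpo and Camp were not analysed here. The 8 B cell markers summed to 130 CPM there against 324 to 533 CPM elsewhere, and the 8 markers of resident peritoneal macrophages to 141 CPM against 346 to 438 CPM. The 8 T cell markers (253 to 353 CPM), the 3 eosinophil markers (7.67 to 14.1 CPM), the 5 mast cell markers (8.69 to 12.6 CPM) and the 6 mesothelial and fibroblast markers (24.6 to 92.7 CPM, highest in Dnmt1KO replicate 1) completed the check.

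No member passed the test between the genotypes. The quasi-likelihood test of edgeR gave an adjusted p under 0.05 for 0 of the 179 members, against 0.0% of the 12542 genes tested, and an unadjusted p under 0.05 for 0, against 0.279% of all genes tested. The lowest unadjusted p among the members was 0.137. The median log2 fold change of the members was -0.12, with the quartiles at -0.24 and -0.0020, beside 0.0046 for all genes tested and 0.019 for the 9194 tested genes that also had at least 99 counts in each sample. The estimate was below 0 in 134 members and above 0 in 45, and it ran from -0.57 for Zfp966 to 0.42 for Zfp358. In 149 of the 179 members the SE was at least as large as the estimate itself, and the median SE was 0.29. The SE is the size of the estimate divided by the square root of the test's F statistic, so it is not separate from the test. In 10 members both Dnmt1KO samples lay above both Dnmt1fl/fl samples, 5.59% of the members beside 8.14% of all genes tested. In 17 members both lay below, 9.50% of the members beside 8.56% of all genes tested. Both shares were near those of all genes. The smallest two-sided p that exact permutation of 2 samples against 2 allows is 0.333.

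The lower median rested on one sample. Dnmt1KO replicate 1 was the lowest of the 4 samples in 133 members, 74.3% of them beside 39.6% of all genes tested. Dnmt1fl/fl replicates 1 and 2 were the lowest in 20 and 16 members, and Dnmt1KO replicate 2 in 10. The other Dnmt1KO sample stood at the opposite end, for Dnmt1KO replicate 2 was the highest of the 4 samples in 76 members. Measured from each member's own mean log2 CPM, the median deviation was 0.10 and 0.056 in the Dnmt1fl/fl samples, -0.29 in Dnmt1KO replicate 1 and 0.17 in Dnmt1KO replicate 2. The members thus differed more between the 2 Dnmt1KO samples, by a median of 0.51 on the log2 scale, than between the 2 Dnmt1fl/fl samples, by a median of 0.16. Over all genes tested these medians were 0.48 and 0.21. In bulk RNA, fewer cells of a type and less RNA per cell cannot be told apart.

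**Figure D1:**
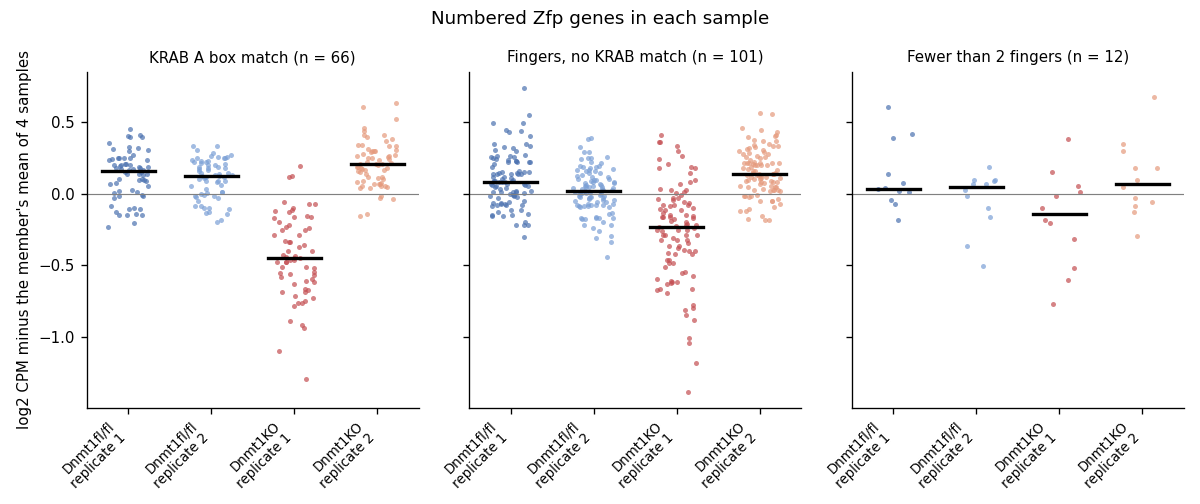
Log2 CPM of each numbered Zfp gene minus its own mean over the 4 samples, by sample and by the class of the encoded protein; each point is a member and the black bar is the median. Dnmt1KO replicate 1 has the lowest median in each class, at -0.45 for members with a KRAB A box match, -0.23 for members with fingers and no such match, and -0.14 for members with fewer than 2 fingers.

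Against the mean of the 2 controls, Dnmt1KO replicate 1 was lower in 155 of 179 members, with a median log2 difference of -0.37 beside -0.0039 for all genes tested. It was below both controls in 136 members and above both in 23. Dnmt1KO replicate 2 was higher than the same control mean in 132 members, with a median log2 difference of 0.086 beside 0.0077 for all genes. It was above both controls in 84 members, below both in 24 and between them in 71. When Dnmt1KO replicate 1 was left out, the median log2 fold change of the members turned to 0.077, and 129 members had an estimate above 0. When Dnmt1KO replicate 2 was left out, the median was -0.37 and 28 members had an adjusted p under 0.05, each of them lower, which is 15.6% of the members beside 8.32% of all genes in that fit. That fit compares 1 Dnmt1KO sample with 2 controls and assumes that it varies as they do.

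**Figure D2:**
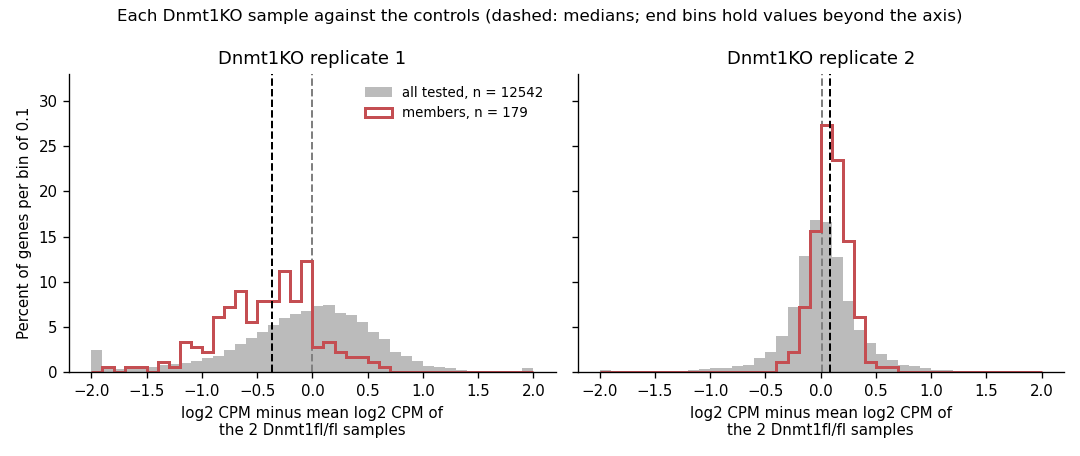
Distribution of the log2 difference between 1 Dnmt1KO sample and the mean of the 2 Dnmt1fl/fl samples, as the percent of genes in bins of 0.1, for the 179 members (red line) and all 12542 genes tested (grey). The dashed medians of the members lie at -0.37 for Dnmt1KO replicate 1 and at 0.086 for Dnmt1KO replicate 2, on opposite sides of 0.

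The sequence of the proteins was used to divide the members. A translation of the GENCODE coding sequence held at least 2 matches to a finger pattern in 166 of the 178 distinct genes, with a median of 10 and up to 37 fingers. A match to a KRAB A box pattern, which is strict and can miss diverged boxes, was found in 66 rows. These 66 had a median log2 fold change of -0.20, and 56 of them were below 0. The 101 rows with fingers and no KRAB match had a median of -0.098, with 69 below 0, and the 12 rows with fewer than 2 fingers a median of -0.042, with 9 below 0. Genotypes did not overlap in 1 member higher (1.52%) and 8 lower (12.1%) in the KRAB class, and in 9 higher (8.91%) and 8 lower (7.92%) among members with fingers and no KRAB match, beside 8.14% and 8.56% of all genes tested. The median difference of Dnmt1KO replicate 1 from the control mean was -0.60 in the KRAB class, -0.27 in the class without a match and -0.16 in the class with few fingers. That of Dnmt1KO replicate 2 was 0.10, 0.081 and 0.036. Dnmt1KO replicate 1 was the lowest sample in 58 of the 66 members with a KRAB match, in 69 of the 101 without and in 6 of the 12 with few fingers. The difference between classes was not tested.

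Finger genes outside the numbered Zfp family were set beside the members. The 16 tested genes with fingers and a KRAB match under other names had a median log2 fold change of -0.19, and Dnmt1KO replicate 1 was the lowest sample in 15 of them. In the 41 Zbtb genes, which pair fingers with a BTB domain, the median was -0.034 and Dnmt1KO replicate 1 was the lowest in 26. In the 19 Zkscan and Zscan genes, which carry a SCAN domain, these values were -0.053 and 12. The low values in Dnmt1KO replicate 1 were thus shared by KRAB finger genes that the member rule did not use.

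The members' transcripts were poorer in GC than those of other genes, with a median of 44.5% beside 49.5% for all genes tested, and somewhat longer, with medians of 4006 and 3354 bases. The members were then ordered by GC content and divided into 3 parts of nearly equal size. In the part with the lowest GC content, from 35.4% to 41.1%, the median log2 fold change was -0.25, and 56 of 60 were below 0. In the middle part it was -0.12, with 45 of 59 below 0. In the part with the highest GC content, from 48.8% to 68.7%, it was -0.0064, with 33 of 60 below 0. The KRAB matches were spread unevenly over these parts, with 33, 25 and 8. Across the 179 members, Spearman's rho between GC content and log2 fold change was 0.60, and across 12509 tested genes with a transcript it was 0.23. The points share the same 4 libraries, and genes are not independent replicates. For Dnmt1KO replicate 1 minus the control mean rho was 0.59 across the members, and for Dnmt1KO replicate 2 it was 0.12. Number of fingers and log2 fold change gave a rho of -0.23, and transcript length a rho of -0.10 across the members beside -0.33 across all genes. For length the 2 Dnmt1KO samples had opposite signs, with a rho of -0.23 for replicate 1 and 0.29 for replicate 2 across the members, beside -0.42 and 0.24 across all genes.

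**Figure D3:**
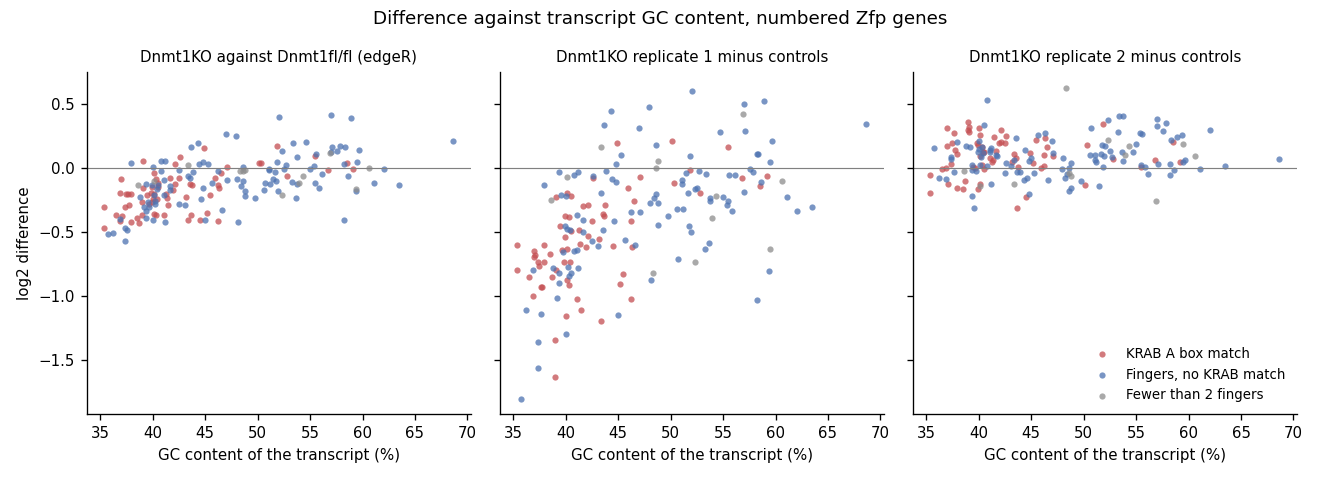
Log2 difference of each member plotted against the GC content of its longest transcript, for the edgeR estimate (left), Dnmt1KO replicate 1 minus the control mean (middle) and Dnmt1KO replicate 2 minus the control mean (right), coloured by protein class. Members of low GC content lie lowest in the left and middle panels, with a Spearman's rho of 0.60 and 0.59, and no such slope is seen at right, where rho is 0.12.

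The same tilt was present in the whole library. In Dnmt1KO replicate 1 the fitted deviation of all genes was -0.25 on the log2 scale at a GC content of 40% and 0.055 at 60%, and 0.29 at a transcript length of 1000 bases and -0.37 at 8000 bases. In Dnmt1KO replicate 2 it was 0.099 at 40% and -0.0034 at 60%, and -0.16 at 1000 bases and 0.21 at 8000 bases. With the GC trend of each library removed, the members' median log2 fold change was -0.064 beside 0.044 for all genes, and Dnmt1KO replicate 1 was the lowest sample in 117 members. For the members with a KRAB match the median was -0.088 with the GC trend removed, against -0.20 before. The median of all genes moved as well, to 0.044 from 0.0046. With the trends in length and GC both removed the values for all members were -0.040, 0.048 and 101 members. The part that GC content, length or the marker lists had in the members' values was not tested.

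The 10 members whose genotypes did not overlap upwards were led by Zfp358, a protein with 9 fingers. It was at 12.6 and 12.8 CPM in the Dnmt1fl/fl samples and at 18.0 and 15.9 CPM in the Dnmt1KO samples, a log2 fold change of 0.42 (SE 0.24, edgeR unadjusted p = 0.137). Zfp524 was at 16.1 and 16.7 CPM in Dnmt1fl/fl and at 23.6 and 19.4 CPM in Dnmt1KO (0.39, SE 0.23). Zfp444, whose protein has a SCAN domain, was at 11.4 and 13.2 against 18.6 and 13.8 CPM (0.40, SE 0.28). In each of these 3 genes Dnmt1KO replicate 1 was the highest sample, the reverse of most members, and the Zfp444 samples of replicate 2 of each genotype were nearly level.

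Zfp787 was at 17.5 and 16.4 CPM in Dnmt1fl/fl and at 21.1 and 19.7 CPM in Dnmt1KO (log2 fold change 0.27, SE 0.22). Zfp771 was at 7.31 and 7.89 against 9.64 and 7.97 CPM (0.21, SE 0.28), and Zfp212 at 13.6 and 13.8 against 16.7 and 15.0 CPM (0.21, SE 0.24). Zfp574 was at 12.6 and 12.5 against 13.5 and 14.6 CPM (0.17, SE 0.24). Zfp87 was at 13.7 and 15.0 against 16.4 and 15.6 CPM (0.16, SE 0.24), and it was the single KRAB match among the 10. Of the 10 genes, 6 lie on chromosome 7, which holds 34 of the 178 members. The reads of Zfp524 are uncertain, since 43.6% of its 100-base stretches also occur in other genes, Gm44973 most of all.

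Among the 17 members whose genotypes did not overlap downwards, Zfp991 had the largest estimate. It was at 84.5 and 76.0 CPM in Dnmt1fl/fl and at 46.3 and 70.0 CPM in Dnmt1KO, a log2 fold change of -0.46 (SE 0.27, edgeR unadjusted p = 0.143). It shares 73.8% of its 100-base stretches with other genes, Znf41-ps most of all. Zfp994 was at 17.0 and 17.6 against 10.4 and 15.5 CPM (-0.42, SE 0.29), and Zfp715 at 28.6 and 28.1 against 16.5 and 26.0 CPM (-0.42, SE 0.28). Both controls of these genes were nearly level, and Dnmt1KO replicate 2 lay close beneath them while Dnmt1KO replicate 1 lay far beneath.

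Zfp870 was at 8.14 and 8.81 CPM in Dnmt1fl/fl and at 5.55 and 7.25 CPM in Dnmt1KO (log2 fold change -0.40, SE 0.30). Zfp654 was at 24.4 and 24.4 against 14.04 and 23.1 CPM (-0.39, SE 0.30), and Zfp51 at 12.9 and 12.8 against 8.08 and 11.5 CPM (-0.39, SE 0.30). Zfp943 was at 23.2 and 23.2 against 14.5 and 21.3 CPM (-0.37, SE 0.27). Zfp868 differed from the others in form, at 20.7 and 14.1 against 13.2 and 13.7 CPM (-0.37, SE 0.29), with Dnmt1fl/fl replicate 2 close to both Dnmt1KO samples, and its estimate was -0.064 without Dnmt1fl/fl replicate 1. Zfp991, Zfp994, Zfp870, Zfp51, Zfp943 and Zfp868 carry a KRAB match, and Zfp994, Zfp870, Zfp51 and Zfp943 lie on chromosome 17.

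**Figure D4:**
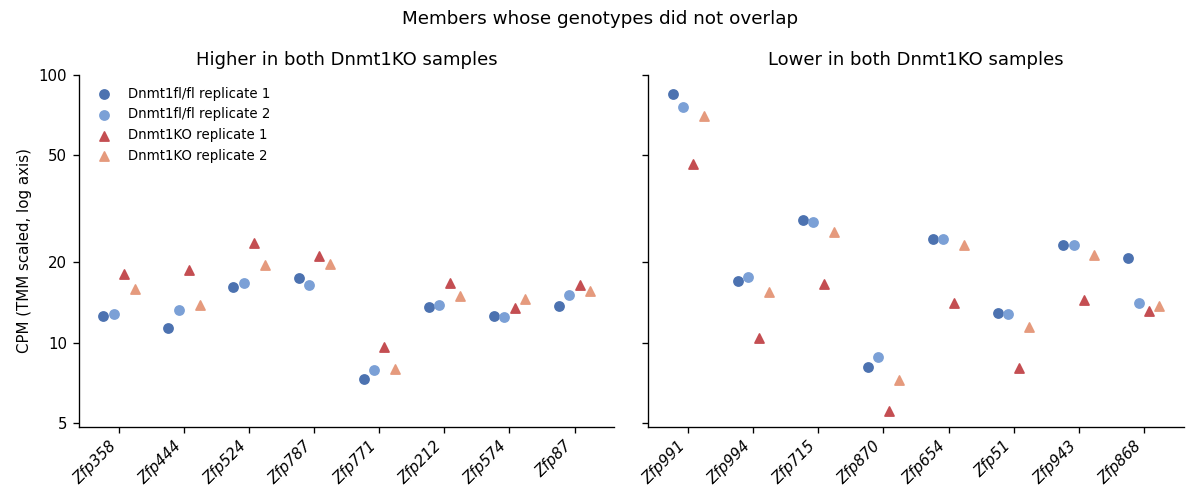
CPM on a log axis in each of the 4 samples for the 8 largest rises (left) and the 8 largest falls (right) among the members whose genotypes did not overlap; circles are Dnmt1fl/fl samples and triangles Dnmt1KO samples. In 7 of the 8 falls on the right Dnmt1KO replicate 1 lies well below a Dnmt1KO replicate 2 that is close to the controls, and Zfp358 on the left runs from 12.6 to 18.0 CPM.

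Because Dnmt1 acts at CG dinucleotides, the sequence before the transcript start is shown for the 3 largest of these rises and the 3 largest of these falls that had a RefSeq promoter window, with each CG in capitals. Each run holds the 120 bases upstream of the RefSeq start, 5′ to 3′ on the gene's own strand, in GRCm38. Zfp358 lies at chr8:3493018-3493137 on the plus strand, Zfp444 at chr7:6172393-6172512 on the plus strand and Zfp787 at chr7:6155966-6156085 on the minus strand. Zfp994 lies at chr17:22225615-22225734 on the minus strand, Zfp715 at chr7:43313301-43313420 on the minus strand and Zfp943 at chr17:21962439-21962558 on the plus strand.
Zfp358: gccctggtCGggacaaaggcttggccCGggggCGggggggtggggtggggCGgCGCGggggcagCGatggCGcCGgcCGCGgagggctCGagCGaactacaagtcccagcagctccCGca
Zfp444: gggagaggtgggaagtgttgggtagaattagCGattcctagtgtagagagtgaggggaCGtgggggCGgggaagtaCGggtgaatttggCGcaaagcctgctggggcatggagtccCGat
Zfp787: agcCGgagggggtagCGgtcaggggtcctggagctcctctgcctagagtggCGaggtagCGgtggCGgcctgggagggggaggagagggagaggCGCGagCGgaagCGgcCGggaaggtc
Zfp994: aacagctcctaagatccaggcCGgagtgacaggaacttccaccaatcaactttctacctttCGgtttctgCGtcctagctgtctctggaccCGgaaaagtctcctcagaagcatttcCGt
Zfp715: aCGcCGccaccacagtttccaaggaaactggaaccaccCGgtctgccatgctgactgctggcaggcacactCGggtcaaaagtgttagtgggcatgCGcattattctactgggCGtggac
Zfp943: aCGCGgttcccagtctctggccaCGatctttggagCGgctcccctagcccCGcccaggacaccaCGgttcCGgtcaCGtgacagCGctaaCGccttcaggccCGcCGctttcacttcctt
These runs hold 14, 6 and 10 CG dinucleotides in Zfp358, Zfp444 and Zfp787, and 5, 6 and 12 in Zfp994, Zfp715 and Zfp943. Methylation was not measured in these samples.

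Of the 178 members, 131 had a RefSeq promoter window, from 250 bases before to 50 bases after a start within 1000 bases of the GENCODE gene start. The median ratio of observed to expected CG in these windows was 0.69, beside 0.38 over all 32851 windows, which include several for many genes and genes not expressed here. A ratio of at least 0.6 was found in 62.6% of the member windows and 35.8% of all windows. The median ratio was 0.62 for members with a KRAB match and 0.75 for the rest. Short motifs were searched on both strands. The ETS letters CCGGAAGT were in 12.2% of member windows and 3.89% of all, CCAAT in 49.6% and 37.4%, and TATAAA in 5.34% and 13.6%. The YY1 letters AAGATGGCG were in 3.05% and 1.40%, the NRF1 letters GCATGCGC in 4.58% and 2.71%, CTCGCGAG in 1.53% and 0.919%, and the cyclic AMP response element TGACGTCA in 3.82% and 1.79%. A match describes the letters and not a bound site.

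The largest gaps between replicates were all between the 2 Dnmt1KO samples, and they fell on Zfp950, Zfp182, Zfp738 and Zfp966. Zfp950 was at 31.4 and 27.8 CPM in Dnmt1fl/fl and at 8.48 and 32.9 CPM in Dnmt1KO (log2 fold change -0.51, SE 0.60). Zfp182, on the X chromosome, was at 28.2 and 25.3 against 8.63 and 32.8 CPM (-0.36, SE 0.59), and Zfp738 at 23.0 and 18.5 against 8.13 and 26.4 CPM (-0.26, SE 0.54). In these 3 genes Dnmt1KO replicate 2 was above both controls. Zfp966, which had the largest fall of any member, was at 32.6 and 19.5 against 8.58 and 26.5 CPM (-0.57, SE 0.56). It shares 78.7% of its 100-base stretches with other genes, Zfp968 most of all. All 4 estimates turned positive without Dnmt1KO replicate 1.

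The members' levels spanned 0.555 to 127 CPM per kb of transcript, with a median of 4.97 beside 6.91 for all genes tested. Zfp971 was the highest, at 115, 152, 94.7 and 144 CPM per kb in Dnmt1fl/fl replicates 1 and 2 and Dnmt1KO replicates 1 and 2. Zfp207, whose protein binds microtubules and the spindle checkpoint protein Bub3, followed at 52.4, 57.8, 41.6 and 58.6 CPM per kb. Every Zfp971 sample was above every Zfp207 sample. Zfp973 (37.6 CPM per kb as the mean of the 4 samples), Zfp991 (24.6), Zfp969 (23.2) and the A-rich DNA-binding factor Zfp384 (21.5) came next. Zfp207 was above Zfp973, and Zfp973 above Zfp991, within each of the 4 samples, although their ranges over the samples overlapped. The order of Zfp991, Zfp969 and Zfp384 changed from sample to sample. Zfp969 shares 100% and Zfp973 74.9% of its 100-base stretches with other genes, most of all with Zfp968 and Zfp965, respectively, on the same chromosome. How the reads were split between such copies affects the level. The lowest levels were those of Zfp846, at 0.555 CPM per kb, and Zfp267, at 1.06.

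The members with work at the ribosome had a median log2 fold change of 0.0091 over 4 genes, 2 above and 2 below 0, and were not tested as a group. Zfp622, a factor of large-subunit maturation, was at 47.3 and 52.9 CPM in Dnmt1fl/fl and at 63.3 and 49.1 CPM in Dnmt1KO. Zfp598, the ligase that marks collided ribosomes, was at 36.9 and 35.7 against 23.4 and 41.3 CPM. Zfp593, which takes part in ribosome assembly, was at 8.62 and 7.97 against 11.1 and 6.95 CPM. It shares 60.3% of its 100-base stretches with other genes, E130218I03Rik most of all. Only the nucleolar protein Zfp330 did not overlap between the genotypes in this list, at 32.1 and 32.9 against 31.1 and 29.5 CPM, which is 1 gene of 4, beside 8.56% of all genes lower and 8.14% higher.

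Among the 7 members that bind RNA or act in splicing the median log2 fold change was -0.13, with 6 below 0, and Dnmt1KO replicate 1 was the lowest sample in 6. The 3 most abundant by CPM were alike in this. Zfp207 was at 172 and 189 CPM in Dnmt1fl/fl and at 136 and 192 CPM in Dnmt1KO, Zfp106 at 182 and 159 against 134 and 185 CPM, and Zfp638 at 89.4 and 95.7 against 66.4 and 93.9 CPM. Zfp318, which in B cells controls the choice between IgM and IgD transcripts, was at 41.7 and 37.2 against 17.8 and 41.7 CPM. The B cell markers were also lowest in Dnmt1KO replicate 1, at a sum of 130 CPM against 324 to 533 CPM, and their part in the Zfp318 values was not tested. Zfp326, which links elongating RNA polymerase to splicing, was at 19.1 and 19.9 against 16.4 and 19.2 CPM. The double-stranded RNA-binding Zfp346 was at 12.6 and 13.1 against 11.5 and 16.7 CPM, and the splicing factor Zfp830 at 16.8 and 18.9 against 17.8 and 17.3 CPM. Genotypes did not overlap in 0 of the 7, too few genes to set against the 8.14% and 8.56% of all genes.

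The list of promoter-binding factors and cofactors held 20 members in 21 rows, with a median log2 fold change of -0.10 and 17 rows below 0. Dnmt1KO replicate 1 was the lowest sample in 17 rows. Zfp143, which binds many housekeeping promoters, was level across the samples at 21.05 and 20.1 against 21.1 and 21.4 CPM, and its genotypes barely stood apart. Zfp410, an activator of Chd4, was at 27.6 and 25.4 against 24.5 and 23.0 CPM, and Zfp263 at 67.1 and 64.3 against 55.7 and 63.6 CPM, both lower without overlap. In all, 1 row was higher (4.76%) and 2 lower (9.52%), beside 8.14% and 8.56% of all genes. The lowest relative value belonged to Zfp644, a partner of the histone methyltransferases Ehmt1 and Ehmt2, at 31.5 and 27.5 against 14.6 and 33.1 CPM. Zfp292 (55.2 and 46.9 against 28.9 and 64.3 CPM) and Zfp335 (27.1 and 24.0 against 14.6 and 30.6 CPM) had the same form.

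The GC-rich DNA-binding factors Zfp281 (44.0 and 29.7 against 23.7 and 36.7 CPM), Zfp148 (54.7 and 50.7 against 38.6 and 57.5 CPM) and Zfp219 (39.3 and 27.9 against 26.3 and 40.6 CPM) overlapped. So did Zfp131 (29.2 and 32.6 against 19.6 and 30.4 CPM). Zfp217, part of a histone demethylase complex, was at 84.4 and 91.6 against 64.4 and 99.6 CPM. Zfp592 (49.2 and 41.5 against 31.96 and 48.3 CPM) and Zfp687 (14.5 and 11.8 against 10.7 and 15.8 CPM) are partners in a chromatin reader complex. The SUMO ligase Zfp451 was at 34.3 and 30.4 against 25.04 and 35.7 CPM, and Zfp652 at 73.1 and 52.9 against 49.0 and 75.3 CPM. Zfp516 was at 39.5 and 24.0 against 26.2 and 31.9 CPM. Zfp384, at 81.2 and 74.2 against 69.8 and 85.1 CPM, had an estimate near 0. Zfp24 (32.2 and 33.8 against 31.9 and 33.3 CPM) and Zfp703 (47.2 and 46.2 against 43.6 and 49.7 CPM) varied little. The 2 rows of Zfp91, which the table does not tell apart, were at 25.7 and 28.2 against 30.5 and 23.9 CPM and at 104 and 102 against 89.4 and 103 CPM.

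The list of retroelement and imprint regulators had the lowest median of the role lists, -0.35 over its 7 members, with 6 below 0 and Dnmt1KO replicate 1 the lowest sample in 6. Zfp445, which protects the methylation of imprinted regions, was at 95.0 and 79.9 CPM in Dnmt1fl/fl and at 38.1 and 94.2 CPM in Dnmt1KO (log2 fold change -0.40, SE 0.44). Zfp809, which recognises the primer binding site of murine leukaemia virus and silences it, was at 21.8 and 22.1 against 11.7 and 22.6 CPM (-0.35, SE 0.35). In both genes 3 samples were alike and Dnmt1KO replicate 1 alone was low.

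Zfp932, a silencer of endogenous retroviruses, was at 21.3 and 18.0 CPM in Dnmt1fl/fl and at 7.62 and 20.8 CPM in Dnmt1KO (log2 fold change -0.47, SE 0.48). Zfp992 was at 62.6 and 64.2 against 31.7 and 63.4 CPM (-0.41, SE 0.36). It shares 28.6% of its 100-base stretches with other genes, Zfp991 most of all. Zfp429 was at 14.9 and 19.2 against 13.8 and 18.6 CPM (-0.075, SE 0.28). Zfp568, which represses a placental transcript of Igf2, showed no such gap, at 15.4 and 12.1 against 13.0 and 14.6 CPM (0.0075, SE 0.27). Of the 7 members, Zfp445, Zfp809, Zfp932, Zfp429 and Zfp738 turned positive without Dnmt1KO replicate 1, and Zfp992 moved to -0.0014. Genotypes did not overlap in 0 of these 7, too few genes to set against the 8.14% higher and 8.56% lower of all genes. Of the 14 listed genes 11 were tested, with a median of -0.31, and the 4 that were tested but missed the count limit, Zfp619 (-0.16), Zfp708 (-0.12), Zfp961 (-0.31) and Zfp69 (-0.49, lower without overlap), were below 0 as well. Zfp57, Zfp268 and Zfp600 were not analysed here.

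The corepressors and methyltransferases that work with KRAB finger proteins were counted as a list of 23 genes, all tested, with a median log2 fold change of -0.058. Of these, 0 had an adjusted p under 0.05 and 1, Dnmt1, an unadjusted p under 0.05 from edgeR. Genotypes did not overlap in 3 genes, each lower in Dnmt1KO, namely the targeted gene Dnmt1, Mphosph8 and Pphln1. With the targeted gene counted, that is 13.0% of the list lower and 0 higher, beside 8.56% and 8.14% of all genes tested. Mphosph8 and Pphln1 are subunits of the HUSH silencing complex. Mphosph8 was at 19.3 and 18.7 CPM in Dnmt1fl/fl and at 15.96 and 17.1 CPM in Dnmt1KO (-0.20, SE 0.22), and Pphln1 at 36.0 and 39.9 against 32.3 and 32.97 CPM (-0.22, SE 0.20). The other 20 were 9 above and 11 below 0.

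Numbered Zfp genes stand in clusters, and 106 of the 178 had another member within 1 Mb. The 24 members on chromosome 17, of which 18 had a KRAB match, had a median log2 fold change of -0.26, with 1 higher (4.17%) and 5 lower (20.8%) without overlap. The 34 members on chromosome 7, of which 10 had a KRAB match, had a median of -0.051, with 6 higher (17.6%) and 3 lower (8.82%), beside 8.14% and 8.56% of all genes tested. Their median GC contents were 39.5% and 51.3%. Chromosomes 2, 8 and 13 held 13 members each, with medians of -0.16, -0.13 and -0.20. In Dnmt1KO replicate 1 the median difference from the control mean was -0.64 on chromosome 17 and -0.19 on chromosome 7, and in Dnmt1KO replicate 2 it was 0.019 and 0.083.

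Near-identical copies and overlapping genes limit single values. Of the 178 members, 9 shared over 50% of their 100-base stretches with another gene and 105 shared none. An annotated gene on the opposite strand overlapped 68 members and one on the same strand 38, and whether reads were counted by strand is not stated in the sources used here.

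The limit of 99 counts was itself met or missed in Dnmt1KO replicate 1. Just inside were Zfp946 and Zfp267, whose lowest sample held 101 counts, and Zfp324, with 102, and just outside were Zfp951, Zfp606 and Zfp961, with 98 each. All 6 had their lowest count in Dnmt1KO replicate 1, where Zfp606 held 98 counts against 197 to 252 in the other samples. In all, 40 numbered rows missed the limit in Dnmt1KO replicate 1 alone, against 1 in Dnmt1fl/fl replicate 1 alone, 0 in Dnmt1fl/fl replicate 2 alone and 1 in Dnmt1KO replicate 2 alone. Over the 314 numbered rows that passed the filter, Dnmt1KO replicate 1 was the lowest sample in 234 and the median log2 fold change was -0.15. The low values were therefore present without the limit as well.

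**Figure D5:**
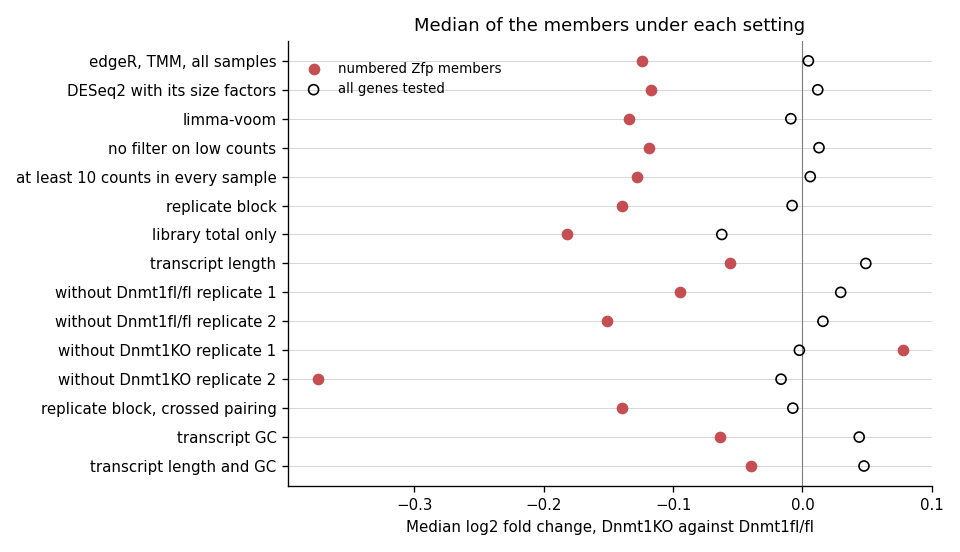
Median log2 fold change of Dnmt1KO against Dnmt1fl/fl over the members (red) and over all genes tested (open circles) under each way of processing the counts. The members' median runs from -0.37 without Dnmt1KO replicate 2 to 0.077 without Dnmt1KO replicate 1, the setting under which it lies above 0.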

How the data were processed

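RNA was sequenced in 2 Dnmt1fl/fl and 2 Dnmt1KO samples of peritoneal macrophages. The authors deposited estimated counts per gene, not normalized; the notes name HISAT2 2.0.5, featureCounts 1.5.0-p3, DESeq2 1.20.0 and build mm10. A shorter table of the same values was not used. Counts were rounded, filtered with filterByExpr, scaled with TMM and compared, without a block, with the quasi-likelihood test of edgeR 4.0.16 (R 4.3.3), with Benjamini-Hochberg adjustment over all 12542 genes that passed. Fits were tested on simulated counts. With 20228071 to 24198943 counts per sample, 3 counts, the floor, correspond to 0.120 to 0.151 CPM, counting error only. Replicates varied with a common dispersion of 0.0837 (coefficient of variation 28.9%).

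The members and lists were chosen with earlier results of these data known. Named are Dnmt1, the members with the 6 highest and 2 lowest levels per kb, the 8 largest rises and falls without overlap, members of 4 role lists, the 3 rows on either side of the count limit, the 4 with the largest replicate gap, and silencing cofactors that did not overlap. An unadjusted p under 0.05 was a further ground, which no member met. Proteins were translated from GENCODE M21 coding sequences, in place of RefSeq proteins. Transcript length and GC come from the longest GENCODE transcript, matched by symbol for 178 of 178 members, and shared sequence from its 100-base stretches. Promoters are from RefSeq (GRCm38.p6). The alternatives tried were limma-voom (limma 3.58.1), DESeq2 1.42.0, other filters, library totals, a replicate block, leaving out each sample, a length correction (loess, span 0.5), an unadjusted threshold and other member limits. A crossed pairing and GC corrections were chosen after seeing the data. Summaries were computed in Python 3.11.15 with SciPy 1.17.1.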

Additional observations from a re-analysis of the deposited data

How the results depend on the processing

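The members' median log2 fold change of -0.12 kept its sign under every alternative with 4 samples, from -0.18 with library totals to -0.040 with length and GC removed, and ran from -0.37 to 0.077 when 1 sample was left out. For the members with a KRAB match this range was -0.60 to 0.097, and the median was -0.088 with GC and -0.085 with length and GC removed, against -0.20. It was above 0 only without Dnmt1KO replicate 1, and the cause was not tested. Of the genes, 0 had an adjusted p under 0.05 in edgeR, 1 in DESeq2, 35 at an unadjusted p under 0.05, and 0 to 1061 when 1 sample was left out, the highest without Dnmt1KO replicate 2, when 28 members were called (15.6%, beside 8.32% of 12754 genes, and 0 in the other 3 fits). In these fits 3521 genes (27.6%) and 69 members (38.5%) had an unadjusted p under 0.05 without Dnmt1KO replicate 2, 352 genes and 0 members without Dnmt1KO replicate 1, and 43 and 84 genes and 0 members without Dnmt1fl/fl replicate 1 and replicate 2, respectively. The 10 higher members without overlap became 6 with library totals (3.35%, beside 5.94% of all genes), 22 with length removed (12.3%, beside 11.3%), 20 with length and GC removed (11.2%, beside 10.9%), 16 over the 314 numbered rows that passed the filter (5.10%, against 5.59% of the 179), and 23 to 83 when 1 sample was left out, the highest without Dnmt1KO replicate 1 (46.4%, beside 32.4% of all genes). The 17 lower members became 26 of 228 with a mean of at least 99 counts (11.4%), 29 of 242 with at least 50 counts in each sample (11.98%) and 38 of the 314 (12.1%), against 9.50% of the 179 and 8.56% of all genes, and 24 to 136 when 1 sample was left out, the highest without Dnmt1KO replicate 2 (76.0%, beside 41.8% of all genes). Over these 4 fits 20.1% to 41.0% of all genes were higher and 20.05% to 41.8% lower without overlap. The log2 fold change of Dnmt1 was -1.12 to -0.75 on leaving out 1 sample, and it was called without Dnmt1KO replicate 2 alone. The signs were compared for 29 genes with a fold change in the text, which leaves out Zfp619, Zfp708, Zfp961 and Zfp69. Of 290 values, 288 kept their sign in the fits with 4 samples, the others being Zfp568 at -0.056 with library totals and Zfp429 at 0.025 with GC removed. On leaving out 1 sample, 9 genes changed sign, with ranges of -1.63 to 0.29 (Zfp182), -0.31 to 0.12 (Zfp429), -1.20 to 0.11 (Zfp445), -0.15 to 0.19 (Zfp568), -1.35 to 0.35 (Zfp738), -0.91 to 0.041 (Zfp809), -1.36 to 0.079 (Zfp932), -1.80 to 0.15 (Zfp950) and -1.60 to 0.024 (Zfp966). With GC removed, 9 of the 29 genes became over 1.5 times smaller in size with the same sign, Zfp991 to -0.27, Zfp994 to -0.26, Zfp654 to -0.23, Zfp51 to -0.24, Zfp943 to -0.20, Zfp992 to -0.27, Zfp771 to 0.11, Mphosph8 to -0.11 and Pphln1 to -0.14. With length and GC removed, Zfp524 was at 0.23, Zfp738 at -0.15 and Zfp429 at -0.037 as well, and with library totals Zfp771 and Zfp212 were at 0.13, Zfp574 at 0.0996, Zfp87 at 0.082 and Zfp429 at -0.13. Zfp738, Zfp182 and Zfp950 were over 1.5 times larger in size with the replicate block, at -0.48, -0.65 and -0.81, and likewise in limma-voom and the crossed pairing, and Zfp568, near 0, ran from 0.0041 to 0.18 elsewhere. When 1 sample was left out, Zfp992 ran from -1.002 to -0.0014 and Zfp868 from -0.62 to -0.064. The other 7 of the 8 largest falls lay between -0.23 and -0.083 without Dnmt1KO replicate 1 and between -0.80 and -0.61 without Dnmt1KO replicate 2, and the 8 largest rises between 0.065 and 0.32 and between 0.11 and 0.60.

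Deviations from the genotype means did not agree between same-numbered samples (correlation -0.35 across 12542 genes, which are not independent replicates), while crossed numbers gave 0.35, the same value with its sign turned, as 2 samples per genotype deviate by equal and opposite amounts. The replicate block gave a members' median of -0.14, 0 genes with an adjusted p under 0.05 and 10 higher and 17 lower members, and the crossed pairing 3 genes with an adjusted p under 0.05 and 0 members, and 297 genes (2.37%) and 4 members (2.23%) with an unadjusted p under 0.05.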
